A study of Mus musculus with 15 samples.

Results

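Bone marrow-derived eosinophils were examined for the messenger RNAs of the machinery that fuses secretory vesicles and granules with membranes. The set held every gene of the eosinophil count tables whose symbol belongs to the VAMP, syntaxin, SNAP-25, syntaxin-binding, MUNC13 (Unc13), synaptotagmin (Syt) or synaptotagmin-like (Sytl) families. The families were chosen with earlier results of these data known. Within them membership rested on symbols, and 59 of the 25101 genes in the tables matched. A gene's level is given as CPM, its read count scaled to the total count of the library. CPM does not correct for transcript length, so levels are compared between libraries within a gene, and not between genes.

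SNARE proteins on a vesicle (R-SNAREs such as the VAMPs) zip together with syntaxins and SNAP-25 relatives on the target membrane and so pull the membranes into contact. Syntaxin-binding and MUNC13 proteins open and template the syntaxins, Rab27 and its synaptotagmin-like effectors dock the granule, and synaptotagmins sense calcium in many secretory cells. Eosinophils use this machinery to release crystalloid granules, whole or piecemeal by way of small vesicles. In humans, loss of UNC13D, STX11 or STXBP2 impairs granule release by cytotoxic lymphocytes and causes familial hemophagocytic lymphohistiocytosis.

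The eosinophils came from unselected bone marrow progenitors of BALB/c mice cultured for 14 days, with SCF and FLT3L at 100 ng/mL each on days 0 to 3 and IL-5 at 10 ng/mL on days 4 to 14, and 2 RNA libraries were deposited. The chromatin libraries of the same study were not used here. Beside the eosinophil tables stood 1 count table of an outside macrophage library and 1 of an outside neutrophil library, which come from other studies. No sample label gives the cell type, strain or treatment of either table, and the cell type names are taken as given. No test of cell type was therefore made, and cell type, study and library preparation cannot be told apart in any of the comparisons with them. In bulk RNA, fewer cells of a type and less RNA per cell cannot be told apart either.

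The eosinophil libraries held 40306679 and 30465490 counts, the macrophage library 106940777 and the neutrophil library 6390310, so that 3 counts, used as a floor, equal 0.0744, 0.0985, 0.0281 and 0.469 CPM. The summed level of 11 eosinophil markers was 13837 and 14145 CPM in the eosinophil libraries, against 4.32 CPM in the macrophage and 433 CPM in the neutrophil library. All 11 eosinophil markers were at 1 CPM or more in both eosinophil libraries. Markers of other lineages were also measured in the eosinophil libraries: macrophage markers summed to 5032 and 5614 CPM (macrophage library 11964 CPM) with Marco at 0, and 16 neutrophil markers summed to 2431 and 2121 CPM (neutrophil library 3234 CPM). All 5 megakaryocyte markers were detected in eosinophils, with a sum of 417 and 446 CPM, against 26.7 CPM in the macrophage and 22.4 CPM in the neutrophil library. The 6 lymphoid markers summed to 30.0 and 31.2 CPM in eosinophils, against 0.206 CPM in the macrophage and 14.1 CPM in the neutrophil library. The neutrophil library had a flat profile, in which the 20 most abundant genes took 1.89% of counts, against 5.81% to 7.21% in the other libraries. It listed Gapdh at 19.2 CPM and all 11 eosinophil markers at 1 CPM or more. Of the 16 neutrophil markers, 8 (Mmp9 and Cxcr2 among them) were higher there than in both eosinophil libraries and 7 (Ly6g and S100a9 among them) were lower. Of 11 macrophage markers, 9 were higher in the macrophage library than in both eosinophil libraries and 2 (Mrc1 and Msr1) were lower. Expression of these markers by the eosinophils and RNA of other cells cannot be told apart. The part of these differences in the results below was not tested.

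Of the 59 genes, 34 were at 1 CPM or more in both eosinophil libraries, or 57.6%, where the share over all genes was 47.5%. The macrophage library had 33 of the 59 at 1 CPM or more (45.2% of all genes), and the neutrophil library had 32 (43.6% of all genes). The families were unevenly represented in eosinophils. All 8 syntaxins of endosomes, Golgi and endoplasmic reticulum, 6 of 7 VAMPs, 3 of 4 SNAP-25 relatives and 3 of 4 MUNC13 genes were detected, but 3 of 17 synaptotagmins and 2 of 5 synaptotagmin-like genes. 6 genes (Vamp7, Snap25, Stxbp5l, Syt9, Syt10 and Syt16) were listed at 0 in all 4 libraries, which allows up to 3 counts, or 0.0744 and 0.0985 CPM in the eosinophil libraries. Whether each of these 6 was counted at all is not known. Vamp7 encodes an R-SNARE that has been linked to granule release in human eosinophils, so its row of zeros says nothing of the protein.

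**Figure D1:**
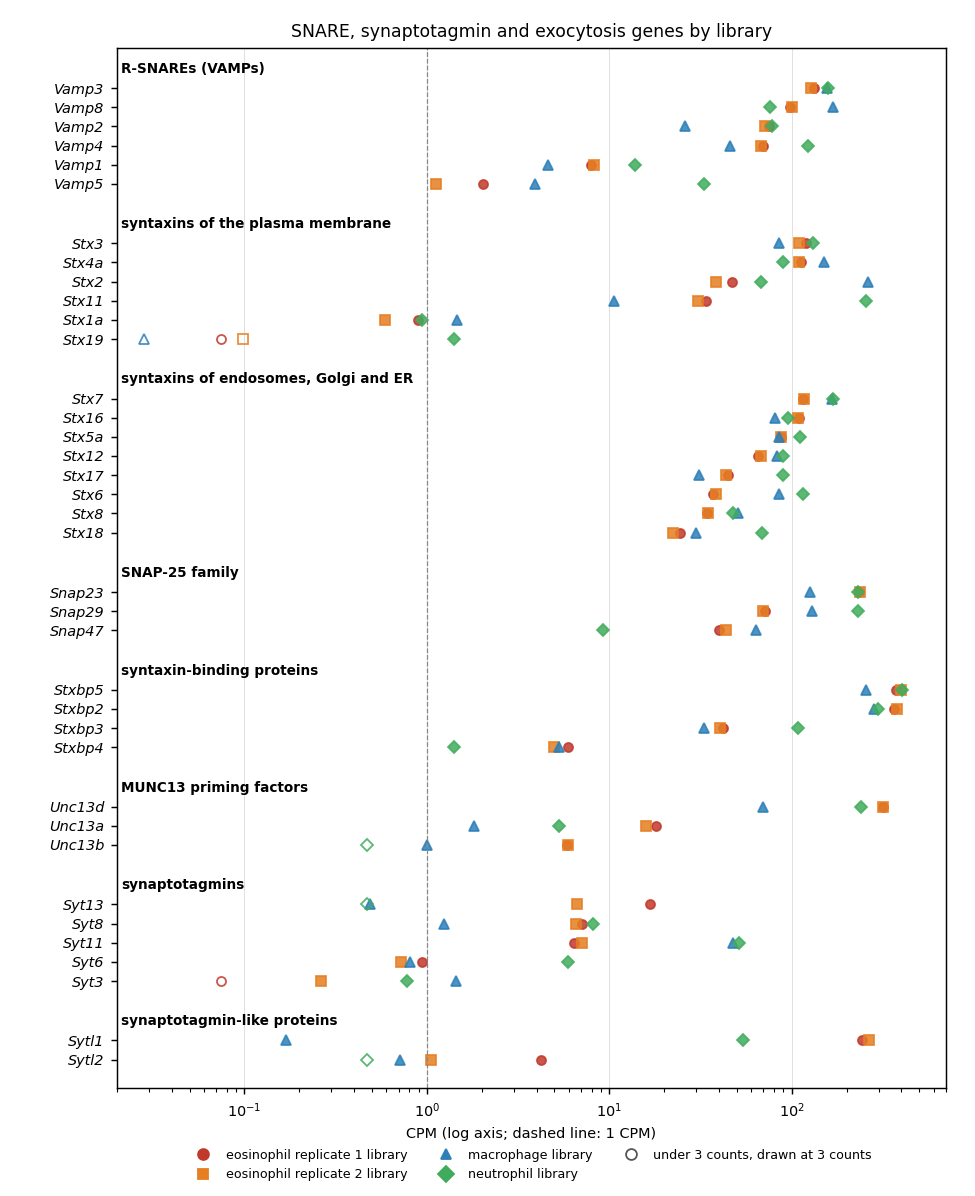
CPM on a log axis of the SNARE, synaptotagmin and exocytosis genes reported by name with 1 CPM or more in at least 1 cell type, by family, in the 2 eosinophil libraries and the outside macrophage and neutrophil libraries; open symbols lie under 3 counts and are drawn there. The eosinophil symbols lie close together for most genes, and Sytl1 has the widest gap to the macrophage library, with 244 and 264 CPM in eosinophils against 0.168 CPM.

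The plot of levels by library shows families whose members lay close together across the libraries and single members that lay far apart. A gene was counted as 4-fold higher when its lower eosinophil value was at least 4 times the outside value, and as 4-fold lower when the outside value was at least 4 times the higher eosinophil value. Against the macrophage library, 6 of the 36 genes that could be compared were 4-fold higher in eosinophils, where 12.9% of all comparable genes were. Another 4 of the 36 were 4-fold lower, where 5.84% of all comparable genes were. Against the neutrophil library, 5 of 36 were 4-fold higher (16.3% of all comparable genes) and 5 were 4-fold lower (9.24% of all). Both comparisons share the same eosinophil libraries. For the genes at 1 CPM or more in every library compared, the median log2 ratio of eosinophil to macrophage was 0.04 over 31 members and -0.05 over all 10850 genes. The same median against the neutrophil library was -0.31 over 30 members and -0.27 over all 10266 genes.

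**Figure D2:**
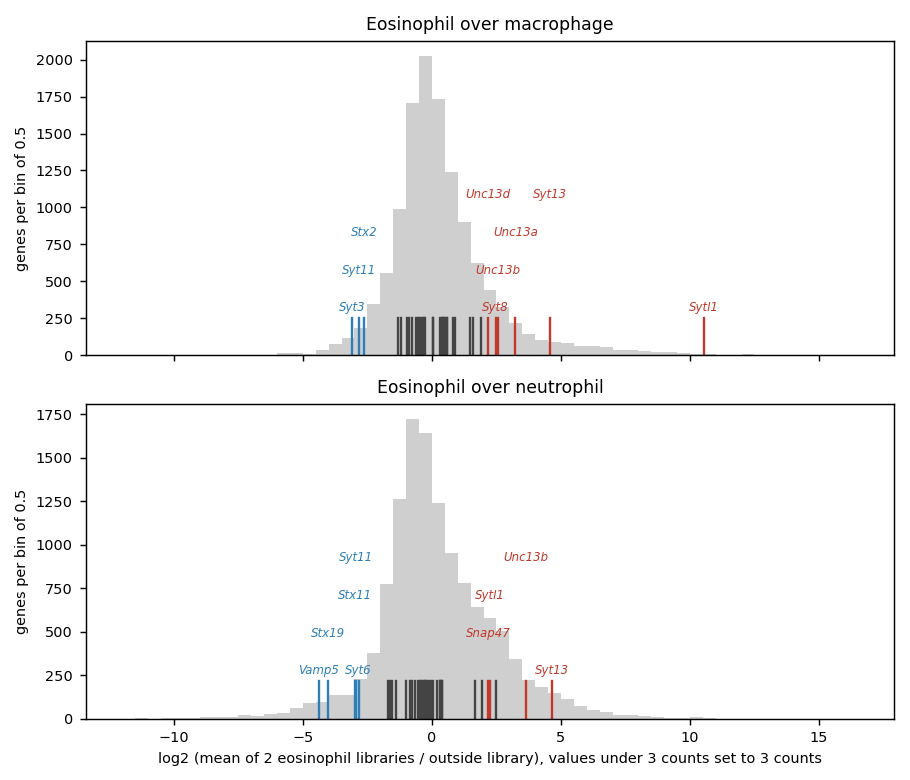
Histograms of the log2 ratio of the mean eosinophil CPM to the outside CPM over all comparable genes (grey), for the macrophage library above and the neutrophil library below, with a tick for each SNARE, synaptotagmin or exocytosis gene reported by name. Red ticks are genes that were 4-fold higher in eosinophils and blue ticks genes that were 4-fold lower, and most other ticks lie near 0.

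The histograms of ratios show most members in the bulk of all genes, with 20 of 31 (64.5%) within 2-fold of the macrophage library, against 60.6% of all genes. Against the neutrophil library, 18 of 30 (60.0%) lay within 2-fold, against 53.1% of all genes. The members outside this band are described by role below.

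The promoters of 5 genes are printed as examples. Stx2 and Syt11 were 4-fold lower than in the macrophage library and Sytl1 was 4-fold higher. Snap23 and Vamp8 were neither 4-fold higher nor 4-fold lower in either comparison. Each line holds the 250 bases before the annotated start, read from the RefSeq table of GRCm38.p6, 5′ to 3′ on the gene's strand. Capitals mark matches, on either strand, to the ETS core GGAAGT, the GATA motif AGATAA or the C/EBP motif TTGCNNAA, which belong to factor families active in myeloid and eosinophil development. The Stx2 entry (the first of 2) lies at chr5:129008573-129008822 on the minus strand, Snap23 at chr2:120567421-120567670 on the plus strand, and Vamp8 at chr6:72390668-72390917 on the minus strand. Sytl1 lies at chr4:133263088-133263337 and Syt11 at chr3:88772600-88772849, both on the minus strand.
Stx2: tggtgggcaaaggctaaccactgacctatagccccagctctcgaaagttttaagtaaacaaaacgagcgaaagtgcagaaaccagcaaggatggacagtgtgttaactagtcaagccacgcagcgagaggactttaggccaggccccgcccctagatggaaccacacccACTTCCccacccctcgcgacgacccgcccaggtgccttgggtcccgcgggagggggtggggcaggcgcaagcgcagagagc
Snap23: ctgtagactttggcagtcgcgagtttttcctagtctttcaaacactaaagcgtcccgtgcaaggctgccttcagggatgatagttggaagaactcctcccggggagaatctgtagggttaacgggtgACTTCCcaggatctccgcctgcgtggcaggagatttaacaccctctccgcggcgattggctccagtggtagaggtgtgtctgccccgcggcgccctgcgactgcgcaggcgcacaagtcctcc
Vamp8: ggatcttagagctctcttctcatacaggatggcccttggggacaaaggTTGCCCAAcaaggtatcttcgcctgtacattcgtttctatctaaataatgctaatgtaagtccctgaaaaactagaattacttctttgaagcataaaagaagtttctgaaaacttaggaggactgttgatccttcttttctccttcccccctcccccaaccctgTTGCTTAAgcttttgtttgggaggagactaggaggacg
Sytl1: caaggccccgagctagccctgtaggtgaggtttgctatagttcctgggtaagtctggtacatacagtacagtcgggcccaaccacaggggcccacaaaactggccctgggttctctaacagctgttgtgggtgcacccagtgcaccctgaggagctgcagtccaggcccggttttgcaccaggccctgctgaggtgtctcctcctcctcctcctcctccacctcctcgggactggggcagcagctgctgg
Syt11: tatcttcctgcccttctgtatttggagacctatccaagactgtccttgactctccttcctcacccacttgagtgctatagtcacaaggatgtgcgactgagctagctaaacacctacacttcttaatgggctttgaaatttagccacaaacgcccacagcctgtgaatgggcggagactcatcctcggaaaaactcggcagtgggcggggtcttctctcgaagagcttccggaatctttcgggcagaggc
Stx2 had 1 ETS core, on the opposite strand, 81 to 76 bases before the start, and Snap23 had 1 on the opposite strand, 123 to 118 bases before it. Vamp8 had 2 C/EBP matches on its own strand, 202 to 195 and 38 to 31 bases before the start, and the Sytl1 and Syt11 windows held none of the 3 motifs. Over the 56 promoter entries of the 45 members that the promoter table holds, the ETS core was found in 8 (14.3%), against 19.7% of all 32851 promoters. The GATA motif was found in 3 (5.36%), against 9.99%, and the C/EBP motif in 8 (14.3%), against 9.56%. These 5 genes were chosen after the matches were seen, and a match describes letters and not binding.

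Sytl1 had the widest ratio of all members against the macrophage library. It encodes SLP1 (also called JFC1), an effector that ties Rab27a on secretory granules to the plasma membrane. Sytl1 had 244 and 264 CPM in the eosinophil libraries, against 0.168 CPM in the macrophage library, where 18 counts gave a 95% Poisson interval of 0.0998 to 0.266 CPM. The neutrophil library had 53.8 CPM. Both eosinophil values lay above both outside values, 1449.8-fold and 1569-fold above the macrophage library and 4.53-fold and 4.91-fold above the neutrophil library. By the ratio to the macrophage library, Sytl1 ranked 29 among 12392 comparable genes. Its promoter is printed above.

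The other synaptotagmin-like genes were under 5 CPM in eosinophils. Sytl2, whose product also binds Rab27a, had 4.22 and 1.05 CPM in the eosinophil libraries, against 0.711 CPM in the macrophage library and 0 in the neutrophil library. The eosinophil values of Sytl2 differed 4.02-fold from each other, and it did not count as 4-fold higher. Sytl4, the granuphilin gene of endocrine granules, had 0.744 and 0.656 CPM in eosinophils, against 0.224 CPM in the macrophage library and 0 in the neutrophil library. Sytl3 and Sytl5 stayed under 1 CPM in all 4 libraries. Sytl1 held 97.5% and 99.3% of the counts of this family in the eosinophil libraries and 98.3% in the neutrophil library, against 13.6% of only 132 counts in the macrophage library.

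The GTPases to which these effectors bind were read beside them as part of 55 further pathway genes. Rab27a, whose loss leaves cytotoxic granules undocked, had 246 and 270 CPM in the eosinophil libraries, against 10.9 CPM in the macrophage library and 314 CPM in the neutrophil library. Rab37, a secretory Rab known from mast cells, had 114 and 122 CPM in eosinophils, against 2.12 CPM in the macrophage library and 137 CPM in the neutrophil library. Rab27b had 3.08 and 1.77 CPM in eosinophils, against 0.112 CPM in the macrophage library and 1 count in the neutrophil library. Thus 3 of the 5 comparable secretory Rabs were 4-fold higher than in the macrophage library (12.9% of all comparable genes). None of the 5 was 4-fold higher or lower than in the neutrophil library (16.3% and 9.24% of all). Rab3d, which marks secretory granules of mast cells and exocrine cells, had 175 and 190 CPM in eosinophils, 110 CPM in the macrophage library and 345 CPM in the neutrophil library.

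MUNC13 proteins prime docked granules by opening syntaxin, and all 3 detected genes of the family were 4-fold higher in eosinophils than in the macrophage library (12.9% of all comparable genes). Unc13d, the MUNC13-4 gene of blood cell granules, had 317 CPM in each eosinophil library, against 70.0 CPM in the macrophage library and 241 CPM in the neutrophil library. The eosinophil values lay 4.53-fold above the macrophage library, close to the limit of 4, and scaling by TMM factors took Unc13d out of the 4-fold higher genes. The neutrophil value lay much nearer to them, at a ratio of 1.32 with a 95% interval for counting error of 1.25 to 1.39.

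Unc13a and Unc13b are best known from synapses, where their products prime synaptic vesicles. Unc13a had 18.0 and 16.0 CPM in the eosinophil libraries, against 1.80 CPM in the macrophage library and 5.32 CPM in the neutrophil library. Its eosinophil values were 9.95-fold and 8.86-fold the macrophage value. Unc13b had 5.88 and 5.94 CPM in eosinophils, against 1.00 CPM in the macrophage library and 1 count in the neutrophil library, whose ratio has a counting interval of 6.74 to 1494. Both genes overlap another counted gene (Colgalt1 for Unc13a, Fam214b for Unc13b), and the strand setting of the counting is not given, so reads of the partners cannot be told apart. Neuronal and endocrine markers summed to 6.48 and 4.53 CPM in eosinophils, against 14.5 CPM in the macrophage and 14.7 CPM in the neutrophil library. Syp alone had 13.3 CPM in the macrophage and 14.7 CPM in the neutrophil library, against 1.86 and 1.31 CPM in eosinophils. Tubb3 went the other way, with 4.52 and 3.15 CPM in eosinophils, against 1.15 CPM in the macrophage library and 0 in the neutrophil library. Map2 stayed under 1 CPM in all 4 libraries, and Snap91, Chga and Rbfox3 were at 0 in all 4. The part of neuronal or endocrine cells in the Unc13a and Unc13b values was not tested. Unc13c had 10 and 2 counts in the eosinophil libraries.

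Syntaxin-binding proteins of the SEC1/MUNC18 type clamp or template syntaxins. Stxbp2, whose MUNC18-2 protein partners syntaxin 11 in immune cells, had 362 and 378 CPM in the eosinophil libraries, against 282 CPM in the macrophage library and 299 CPM in the neutrophil library. Stxbp5, which encodes tomosyn, a protein that occupies syntaxin and SNAP-25 complexes and can hold back fusion, had 375 and 399 CPM in eosinophils, against 255 CPM in the macrophage library and 402 CPM in the neutrophil library. Neither gene reached 2-fold in any comparison. Stxbp3, the MUNC18-3 gene that works with syntaxin 4, had 42.3 and 40.5 CPM in eosinophils, 33.2 CPM in the macrophage library and 108 CPM in the neutrophil library. Stxbp4, whose product binds syntaxin 4, had 5.90 and 4.99 CPM in eosinophils, against 5.30 CPM in the macrophage library and 1.41 CPM (9 counts) in the neutrophil library. Stxbp6 stayed under 1 CPM in all 4 libraries.

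The plasma membrane syntaxins summed to 315 and 290.1 CPM in the eosinophil libraries, against 512 CPM in the macrophage library and 547 CPM in the neutrophil library. Stx3 and Stx4a were the detected members that differed least between the libraries. Stx4a, whose product pairs with SNAP-23 on the surface of leukocytes, had 113 and 110.5 CPM in the eosinophil libraries, against 151 CPM in the macrophage library and 89.7 CPM in the neutrophil library. Stx3, a syntaxin of apical membranes and granulocyte granules, had 120 and 110 CPM in eosinophils, against 85.4 CPM in the macrophage library and 132 CPM in the neutrophil library. Both genes lay within 2-fold of either outside library.

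Stx2 and Stx11 each passed the 4-fold limit against 1 outside library. Stx2 did so against the macrophage library and lay 1.45-fold and 1.77-fold below the neutrophil library. Stx11 did so against the neutrophil library and lay 3.20-fold and 2.89-fold above the macrophage library. Stx2, also called epimorphin, had 47.1 and 38.6 CPM in the eosinophil libraries, against 263 CPM in the macrophage library and 68.2 CPM in the neutrophil library. The macrophage value was 5.58-fold and 6.81-fold the eosinophil values, and Stx2 made up 15.0% and 13.3% of the group's counts in eosinophils, against 51.4% in the macrophage library. Stx11, the lipid-anchored syntaxin of lymphocyte and platelet granule release, had 33.9 and 30.6 CPM in eosinophils, against 10.6 CPM in the macrophage library and 256 CPM in the neutrophil library. The neutrophil value was 7.53-fold and 8.34-fold the eosinophil values. Its share of the group's counts was 10.8% and 10.6% in eosinophils, 2.07% in the macrophage library and 46.7% in the neutrophil library.

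The neuronal and epithelial syntaxins were near the limit of detection. Stx1a had 0.893 and 0.591 CPM in the eosinophil libraries, 1.46 CPM in the macrophage library and 0.939 CPM in the neutrophil library. Stx19 had 0 and 2 counts in eosinophils and 0 in the macrophage library, against 1.41 CPM (9 counts) in the neutrophil library, which placed it among the genes 4-fold lower than in neutrophils. Stx19 overlaps Arl13b.

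**Figure D3:**
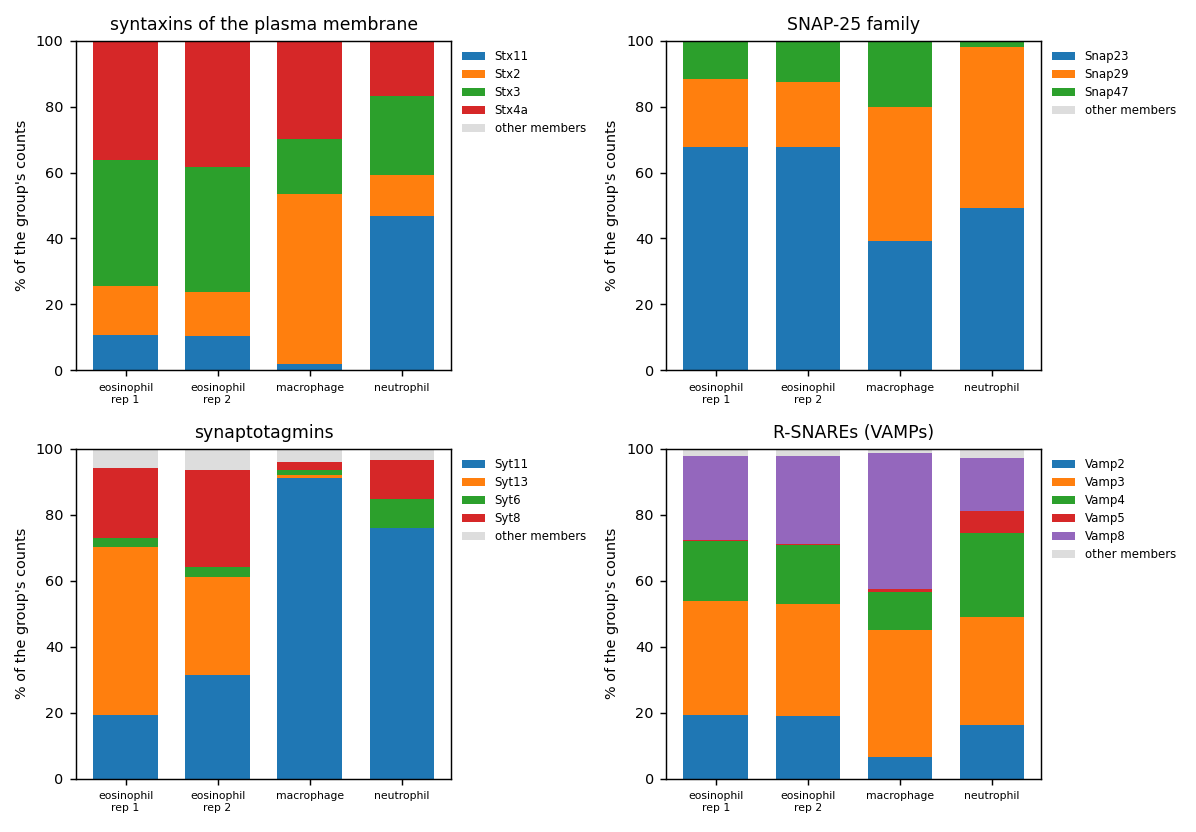
Stacked bars of the share of counts, in percent, that each gene took within 4 families in the 2 eosinophil libraries and the outside macrophage and neutrophil libraries; genes under 5% in all libraries are grouped as other members. Against the macrophage bars, the eosinophil bars hold less Stx2 (15.0% and 13.3% against 51.4%) and less Syt11 (19.3% and 31.5% against 91.2%), and against the neutrophil bar less Stx11 (10.8% and 10.6% against 46.7%).

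The bars of shares also display the SNAP-25 family, in which Snap23 took a higher share of the counts in eosinophils than in either outside library. This gene encodes the SNAP-25 relative of non-neuronal cells, found with syntaxin 4 on the eosinophil surface in humans. Snap23 had 234 and 238 CPM in the eosinophil libraries, against 126 CPM in the macrophage library and 232 CPM in the neutrophil library. It took 67.8% of the family's counts in each eosinophil library, against 39.3% in the macrophage and 49.1% in the neutrophil library. Snap29, which serves endosomes and autophagosomes, had 71.0 and 69.4 CPM in eosinophils, against 130.1 CPM in the macrophage library and 230.5 CPM in the neutrophil library. Snap47, a broadly expressed relative, had 40.2 and 43.9 CPM in eosinophils, against 63.9 CPM in the macrophage library and 9.23 CPM in the neutrophil library, which was 4.35-fold and 4.75-fold below the eosinophil values. Snap29 overlaps Pi4ka and Snap47 overlaps Jmjd4 in the annotation.

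Of the 6 detected VAMPs on vesicles, 5 were neither 4-fold higher nor 4-fold lower in either comparison. Over all comparable genes, 12.9% were higher and 5.84% lower against the macrophage library, and 16.3% and 9.24% against the neutrophil library. Vamp3, of recycling endosomes, had 133 and 128 CPM in the eosinophil libraries, against 157 CPM in the macrophage library and 158 CPM in the neutrophil library. Vamp8, the R-SNARE of granule release in mast cells and platelets, had 98.0 and 100.3 CPM in eosinophils, against 168 CPM in the macrophage library and 76.2 CPM in the neutrophil library. Vamp2, found on small secretory vesicles of human eosinophils, had 74.7 and 71.2 CPM in eosinophils, against 25.9 CPM in the macrophage library and 78.2 CPM in the neutrophil library. The 2.88-fold and 2.75-fold gap of Vamp2 to the macrophage library was the widest upward one among VAMPs, and it stayed short of 4-fold.

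Vamp4, of the trans-Golgi network, had 69.8 and 67.7 CPM in the eosinophil libraries, against 46.2 CPM in the macrophage library and 123 CPM in the neutrophil library. Vamp1 had 7.91 and 8.24 CPM in eosinophils, against 4.61 CPM in the macrophage library and 13.9 CPM in the neutrophil library. Vamp5, first described in muscle, was the VAMP that met the 4-fold limit. It had 2.03 and 1.12 CPM in eosinophils, against 3.90 CPM in the macrophage library and 33.0 CPM in the neutrophil library, 16.2-fold and 29.6-fold the eosinophil values.

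The 8 syntaxins of endosomes, Golgi and endoplasmic reticulum were detected in every library. None was 4-fold higher or lower than in the macrophage library, where 12.9% and 5.84% of all comparable genes were. The same held against the neutrophil library (16.3% and 9.24% of all). Stx7, of late endosomes, had 116 and 117 CPM in the eosinophil libraries, against 166 CPM in the macrophage library and 169 CPM in the neutrophil library. Stx16, of the trans-Golgi network, had 109.9 and 108 CPM in eosinophils, against 81.4 CPM in the macrophage library and 96.1 CPM in the neutrophil library. Stx5a, of the Golgi, had 87.3 and 87.1 CPM in eosinophils, against 85.4 CPM in the macrophage library and 111 CPM in the neutrophil library. Stx6, which sorts cargo between trans-Golgi network and endosomes, was the only one of the 8 more than 2-fold below the macrophage library, with 37.0 and 38.4 CPM in eosinophils against 85.3 CPM there and 115 CPM in the neutrophil library. Stx17, which acts in autophagosome fusion and has been seen on granules of human eosinophils, had 44.8 and 43.5 CPM in eosinophils, against 31.0 CPM in the macrophage library and 89.5 CPM in the neutrophil library. Stx12, of recycling endosomes, had 65.8 and 67.9 CPM in eosinophils, against 83.1 CPM in the macrophage library and 89.8 CPM in the neutrophil library. The family summed to 520 and 519 CPM in the eosinophil libraries, 613 CPM in the macrophage library and 787 CPM in the neutrophil library. Stx8 and Stx18, of late endosomes and of the endoplasmic reticulum, ran from 22.5 to 34.8 CPM in eosinophils, against 29.8 to 68.4 CPM in the outside libraries.

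Of the 17 synaptotagmins, Syt8, Syt11 and Syt13 were at 1 CPM or more in both eosinophil libraries, and none of these is a classical fast calcium sensor. Syt11, whose product lacks calcium binding and restrains cytokine secretion and phagocytosis in macrophages, had 6.38 and 7.06 CPM in the eosinophil libraries. It had 47.4 CPM in the macrophage library and 51.6 CPM in the neutrophil library, 7.44-fold and 6.72-fold the eosinophil values in macrophages and 8.10-fold and 7.32-fold in neutrophils. Syt11 was thus 4-fold lower in both comparisons, which share the eosinophil values. Syt8 had 7.05 and 6.60 CPM in eosinophils, against 1.23 CPM in the macrophage library and 8.14 CPM in the neutrophil library.

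Syt13, a synaptotagmin without the usual calcium-binding residues, had 16.8 and 6.63 CPM in the eosinophil libraries, against 0.486 CPM in the macrophage library and 0 in the neutrophil library. Its eosinophil values were 34.5-fold and 13.6-fold the macrophage value and at least 35.7-fold and 14.1-fold higher than the neutrophil library at its floor of 3 counts. The eosinophil libraries differed 2.53-fold from each other for this gene. The calcium sensors of synapses and lysosomes were at or near 0: Syt1 had 0 and 2 counts, Syt2 1 and 0 counts, and Syt7 2 and 2 counts in the eosinophil libraries. Syt7 had 2 counts in the macrophage library and 0 in the neutrophil library. Counts at this depth are under the floor and give no direction.

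The remaining synaptotagmins were under 1 CPM in at least 1 eosinophil library. Syt3 had 0 and 0.263 CPM in eosinophils, against 1.44 CPM in the macrophage library and 0.782 CPM in the neutrophil library, and counted as 4-fold lower than in macrophages; it overlaps 1700008O03Rik. Syt6 had 0.943 and 0.722 CPM in eosinophils, against 0.804 CPM in the macrophage library and 5.95 CPM in the neutrophil library, and counted as 4-fold lower than in neutrophils. Syt5 had 0.943 and 0.427 CPM in eosinophils, against 0.112 CPM in the macrophage library and 0 in the neutrophil library. Syt17 had 0.744 and 0.394 CPM in eosinophils, and Syt4, Syt12, Syt14 and Syt15 had at most 2 counts in either eosinophil library. The 17 genes together summed to 33.0 and 22.4 CPM in the eosinophil libraries, against 52.0 CPM in the macrophage library and 67.9 CPM in the neutrophil library.

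The wider fusion machinery was read from 6 lists of 55 genes. Of these, 40 (72.7%) were at 1 CPM or more in both eosinophil libraries, against 47.5% of all genes. The macrophage library had 37 of the 55 at 1 CPM or more (45.2% of all genes) and the neutrophil library 39 (43.6%). All 12 other SNAREs, all 4 genes of SNARE disassembly, all 5 other SEC1/MUNC18 genes and all 9 exocyst genes were detected in eosinophils. All of them were also at 1 CPM or more in the macrophage library, and all but Napb (0.626 CPM) in the neutrophil library. None of these was 4-fold higher or lower than in the macrophage library. Nsf, the ATPase that takes spent SNARE complexes apart, had 75.2 and 68.9 CPM in the eosinophil libraries, against 251 CPM in the macrophage library and 170 CPM in the neutrophil library. Over the 6 lists, 5 of 40 comparable genes (12.5%) were 4-fold higher than in the macrophage library, close to the 12.9% of all comparable genes, and 0 were 4-fold lower (5.84% of all). The 2 outside the Rab list were Doc2g, a relative of the Doc2 calcium sensors, with 3.08 and 3.25 CPM in eosinophils against 0.252 CPM in the macrophage library, and Rph3al, the Noc2 gene of granule exocytosis in endocrine cells. Rph3al had 2.80 and 3.54 CPM in eosinophils, against 0 in the macrophage library and 3.44 CPM in the neutrophil library. Against the neutrophil library, 2 of 43 were 4-fold higher (Exoc6b and Rims3), where 16.3% of all comparable genes were, and 4 were 4-fold lower (Exoc8, Rims2, Rph3a and Baiap3), where 9.24% were.

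The eosinophil libraries gave close values for most members. Of the 34 detected genes, 30 (88.2%) lay within 1.25-fold between the libraries, against 83.7% of all detected genes. Over 2-fold apart were 2 of the 34 comparable members (1 CPM or more in at least 1 eosinophil library), Syt13 and Sytl2, both higher in replicate 1. Of all comparable genes, 5.65% were over 2-fold apart and 5.48% were so with replicate 1 higher. Among members under 1 CPM in both libraries, Sytl5 (38 and 4 counts), Syt5 (38 and 13), Unc13c and Sytl3 (10 and 2 each) were over 2-fold higher in replicate 1. Stxbp6 (8 and 18 counts) and Syt3 (0 and 8) were over 2-fold lower there. Vamp5 differed 1.82-fold, also with replicate 1 higher. In the same direction, 9 of 10 stromal markers were higher in replicate 1, with Lum at 0 in both eosinophil libraries. Their sum was 4690 and 1855 CPM in the eosinophil libraries, against 401 CPM in the macrophage and 446 CPM in the neutrophil library. The neutrophil sum came mostly from Fn1 (355 CPM) and Pecam1 (81.5 CPM), with Col1a2, Col3a1 and Sparc at 0 there. Col1a2 had 1040 and 291 CPM in eosinophils. Of the 10, 9 were lower in the neutrophil library than in both eosinophil libraries and 0 were higher. In the macrophage library 7 were lower and 3 higher. Of 9 mast cell and basophil markers, 8 were also higher in replicate 1, with Mcpt4 at 0 in both eosinophil libraries. The sum of these 9 was 80.2 and 48.1 CPM in eosinophils, against 10.6 CPM in the macrophage and 77.8 CPM in the neutrophil library. Both outside sums came mostly from Kit, the 1 marker of the 9 that was higher in the neutrophil library than in both eosinophil libraries. Another 6 were lower there. Cpa3 had 28.2 and 12.9 CPM in eosinophils, against 1.25 CPM in the neutrophil library. In the macrophage library 8 were lower and 0 higher. Of the other lists, 11 of 16 neutrophil, 4 of 11 macrophage and 3 of 11 eosinophil markers were higher in replicate 1. So were 3 of 6 neuronal and endocrine, 2 of 6 lymphoid and 1 of 5 megakaryocyte markers. The part of stromal cells, mast cells, basophils or other cells in Syt13, Sytl2 and Vamp5 was not tested. Syt13 was 34.5-fold above the macrophage library in replicate 1 and 13.6-fold in replicate 2. Sytl2 was 5.93-fold and 1.48-fold above it.

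**Figure D4:**
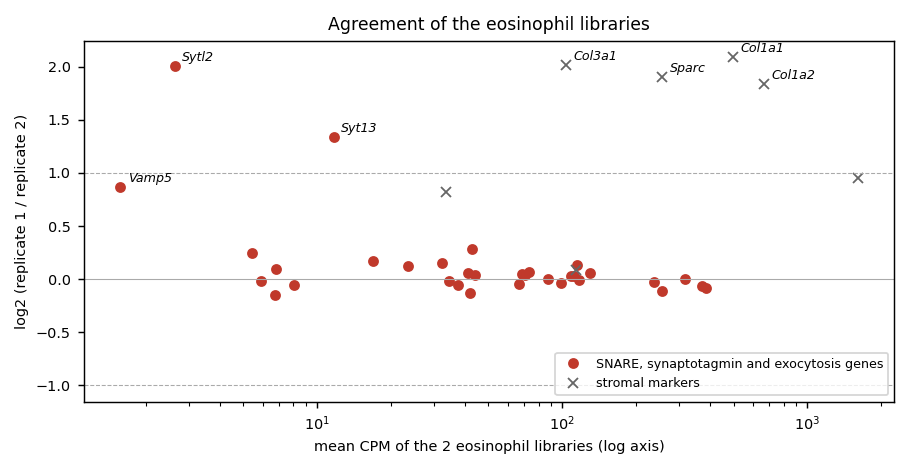
Log2 ratio of eosinophil replicate 1 to replicate 2 against the mean CPM (log axis) for SNARE, synaptotagmin and exocytosis genes reported by name (red circles) and stromal markers (grey crosses) with 1 CPM or more in at least 1 library; dashed lines mark 2-fold. Most circles lie near 0, with Sytl2 (4.02-fold) and Syt13 (2.53-fold) above the upper line.

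The plot of replicate ratios places the 2 divergent genes at low mean levels, while genes such as Unc13d, Snap23 and Stxbp2 lie on the line of equality within a few percent. Since nothing states that the replicates came from separate animals, this spread may be technical.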

How the data were processed

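RNA of 2 bone marrow-derived eosinophil libraries of 1 group was analysed; the 19 deposited peak lists of the series were not used, because no annotation of their build (mm9) was at hand. The authors deposited whole-number read counts per gene without normalization for each eosinophil library and, in the same layout, for 1 macrophage and 1 neutrophil library of other studies, whose values are given as the authors' without n or SD. Per the submitters' processing notes, tools included Trim Galore 0.4.2, STAR 2.5, Picard 1.89 and featureCounts; the strand setting is not given in the sources used here. Counts were divided by the library total over 25101 genes (25075 shared by all 4 tables; the other 26 symbols had become dates in the outside tables, none a member) to give CPM. Detection was 1 CPM in both eosinophil libraries, and values under 3 counts were set to 3 counts for folds. With 1 outside library a type, no test and no p-value was computed; 95% intervals (exact Poisson, or exact conditional binomial for ratios) cover counting error only. Among genes with 1 to 20 counts, 75.5% and 77.1% of eosinophil, 68.1% of macrophage and 39.9% of neutrophil counts were even; if read pairs were counted as 2, the intervals are too narrow.

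Of the 59 members, 11 overlap another counted gene and 59 matched the RefSeq gene table by symbol, while 45 have an entry in the separate promoter table. Values are given for up to 4 members with the highest eosinophil mean in each family, every member past 4-fold or over 2-fold apart, and members of known granule roles; Sytl3, Sytl5, Stx8, Stx18 and others are given by range. The values of 2 members are not reported here, although the counts include them. Members and lists were chosen with earlier results of these data known. Levels per transcript length, peaks at member promoters and protein sequences were planned and not done. The calling code was checked on simulated counts. Alternative scalings were TMM (edgeR 4.0.16) and size factors (DESeq2 1.42.0), run in R 4.3.3, and all else used Python 3.11.15, pandas 2.3.3 and scipy 1.17.1.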

Additional observations from a re-analysis of the deposited data

How the results depend on the processing

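The 40 alternatives for the counts of members gave 33 values within 1.5 times the reported one and 7 outside it. An 8-fold limit left 3 members higher (7.52% of all comparable genes) and 0 lower (1.87%) than the macrophage library. Against the neutrophil library it left 3 higher (8.4% of all) and 2 lower (4.7%). A 2-fold limit gave 8 members higher (28.2% of all comparable genes) and 9 lower (24.7%) than the neutrophil library. At a minimum of 5 CPM, 1 member (Syt13) was over 2-fold apart between the eosinophil libraries, where 2.95% of all comparable genes were. Detected members numbered 37 at a minimum of 0.5 CPM (50.6% of all genes) and 31 at 5 CPM (39.7%). They numbered 34 without replicate 1 (47.9%) and 34 without replicate 2 (49.2%). Without replicate 1, 6 members were higher than the macrophage library (13.4% of all comparable genes) and 5 higher than the neutrophil library (16.7%). Without replicate 2, the numbers were 7 (16.6%) and 7 (19.4%). Sytl2 then joined both higher groups and Stxbp4 the group higher than neutrophils. The 4 and 5 lower did not change (7.21% and 10.4% of all without replicate 1, 6.16% and 9.51% without replicate 2). Stxbp4 joined the members higher than neutrophils under TMM and DESeq2 scaling too. Each scaling gave 6 members there, where 19.8% and 18.4% of all comparable genes were higher. TMM factors moved the median log2 ratio of all genes by -0.22 against the macrophage library and by 0.31 against the neutrophil library, and DESeq2 size factors by -0.10 and 0.18, so ratios close to 1 carry no direction. Under TMM, Unc13d dropped out of the members higher than the macrophage library, which left 5 (11.4% of all comparable genes). Of 376 alternatives for single members, 252 moved less than the spread of the 2 eosinophil libraries and 124 moved by more. Leaving out 1 of these 2 libraries moves a ratio by less than that spread almost by construction. The 252 therefore do not measure stability. Except for Sytl5 without replicate 1, in both comparisons, the 124 came from the TMM and DESeq2 scalings. The sign of the log2 ratio changed in 22 of the 376, over 14 pairs of member and comparison with reported log2 ratios of -0.27 to 0.63, and in 0 of those for members past 4-fold. These included Stx5a and Stxbp4 against the macrophage library, and Stx3, Stxbp5, Syt8, Vamp2 and Vamp3 against the neutrophil library. No paired analysis was possible because there is 1 group of eosinophil libraries and the outside libraries carry no replicate number.

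The outside libraries limit the comparisons: each type has 1, of another study, and the neutrophil library has the lowest depth, at which 3 counts are 0.469 CPM. Genes at 0 there, such as Syt13 and Sytl2, have ratios that depend on this floor.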

Other observations

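Among the pathway genes called against the neutrophil library, Exoc6b, an exocyst subunit, had 33.3 and 32.9 CPM in the eosinophil libraries, against 67.1 CPM in the macrophage library and 5.79 CPM in the neutrophil library. Exoc8, another exocyst subunit, had 33.7 CPM in each eosinophil library, against 63.0 CPM in the macrophage library and 136 CPM in the neutrophil library. Baiap3, a MUNC13 relative of dense-core vesicle traffic, had 2 counts in each eosinophil library and 4 in the macrophage library, against 80.3 CPM in the neutrophil library. Rims2, a Rab3-binding active zone gene, had 0 counts in both eosinophil libraries, against 0.112 CPM in the macrophage library and 13.3 CPM in the neutrophil library. Rims3, its shorter relative, had 4.47 and 4.60 CPM in eosinophils, against 2.09 CPM in the macrophage library and 0 in the neutrophil library. These neutrophil values come from the library with the flat profile described above.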
